A study of Mus musculus with 4 samples.

Results

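The clustered histone genes of the mouse were followed in polymorphonuclear myeloid-derived suppressor cells (PMN-MDSC), immature neutrophil-like cells that restrain T cells. Members were the genes whose name in the deposited tables begins with Hist, a digit and h. This gave 70 of 54532 genes, of which 67 are annotated as protein coding and 3 as pseudogenes. They fall into 5 classes by the protein they encode: 6 genes of the linker histone H1, 20 of H2A, 19 of H2B, 12 of H3 and 13 of H4. Newborn spleens of C57BL/6 mice gave the purified cells. These were kept for 5 days in NECA, a stable analogue of adenosine that acts on its receptors, while DMSO, its solvent, served as the control. There were 2 libraries per condition, replicates 1 and 2. The labels give 300000 lysed cells per condition, without saying whether each library had that number. RNA was turned into cDNA with the SMARTer chemistry and amplified by PCR before sequencing. Whether the replicates of a condition came from different pups or cultures is not given in the labels, so every p-value below measures the spread between these libraries, which may be technical. Values in the text are listed in the order DMSO replicate 1, DMSO replicate 2, NECA replicate 1 and NECA replicate 2 wherever 4 are given.

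Clustered histone genes supply the bulk of histone protein when a cell copies its DNA, and their transcripts are made mainly in S phase. H2A, H2B, H3 and H4 form the core around which DNA is wrapped, and H1 binds the DNA where it enters and leaves that core. Most of these genes lack introns, and their messages typically end just after a short stem-loop in place of a poly(A) tail. The stem-loop is bound by the protein SLBP, which governs the processing, translation and decay of the message. Some members can also end further downstream at an ordinary poly(A) signal, which is known from cells that have left the cell cycle. A further group of genes outside the clusters encodes variant histones, many of whose messages carry poly(A) tails and are made throughout the cell cycle.

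The stem-loop is shown first because it is the feature that sets these transcripts apart from other messages. The motif searched was GG, NN, CTT, N, T, N, AG, NN and CC in a row, where N is any base, on the transcript strand of GENCODE M21 (GRCm38). It was found in annotated transcripts of 46 of the 70 members (65.7%), and in 201 of all 55450 annotated genes (0.362%). A missing match says only that these letters are not in the annotated transcript. Below, the 16 bases of the motif are in capitals with the annotated bases on either side in lower case, for the members of each class that carried many of the counts or differed most in them.
Hist1h1c: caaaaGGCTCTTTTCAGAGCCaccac
Hist1h1e: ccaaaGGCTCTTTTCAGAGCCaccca
Hist3h2a: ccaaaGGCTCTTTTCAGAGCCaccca
Hist1h2bg: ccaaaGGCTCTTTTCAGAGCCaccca
Hist1h2be: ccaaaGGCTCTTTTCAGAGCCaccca
Hist1h3c: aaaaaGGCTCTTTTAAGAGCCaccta
Hist1h4i: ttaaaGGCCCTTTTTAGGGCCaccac
Hist1h4m: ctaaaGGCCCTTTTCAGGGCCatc
The form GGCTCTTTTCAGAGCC was the most frequent, in 26 members. The form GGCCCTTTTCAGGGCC, with a different pair of bases in the stem, was found in 7 members. Hist1h1c, Hist1h1e, Hist1h2bg, Hist1h2be and Hist3h2a all carry the first form, although their mean levels ran from 0.657 FPKM (Hist1h2be) to 43.0 FPKM (Hist1h1c; FPKM is the count scaled by gene length and library). In Hist1h1c it lies on chromosome 13 at 23739512 to 23739527, plus strand, and in Hist1h4i on chromosome 13 at 22040966 to 22040981, minus strand (GRCm38).

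What follows the stem-loop differed between members. The annotated transcript of Hist1h4m ends 3 bases after it, that of Hist1h2bg 155, that of Hist1h4i 330 and that of Hist1h1c 840 bases after it. Over the 46 members with the motif, 23 had more than 100 annotated bases after it, of which 11 passed the filter on low counts, and 23 had 100 or fewer, of which 6 passed. A poly(A) signal (AATAAA or ATTAAA, transcript strand) within the last 50 bases of an annotated transcript was present in 17 of the 70 members (24.3%), against 80.7% of the 21951 protein-coding genes in the annotation. The following lines show that signal in capitals for the 5 of these 17 with the most counts.
Hist1h1c: cttctAATAAAaagcgtttag
Hist1h4i: tttacATTAAAagtattctat
Hist1h2be: tccttATTAAAgcattcctga
Hist2h2be: ttattAATAAAgttaccgatt
Hist3h2a: tgcccAATAAAataagagtac
Together the 17 members held 74.0% of all counts of clustered histone genes. This share was carried by Hist1h1c. By the median member the sets were close: the median of the mean FPKM was 0.279 for the 17 members with a signal at the annotated end and 0.346 for the 53 without. Hist1h2bc, the second most abundant member by counts, matched neither the stem-loop motif nor a terminal poly(A) signal in its annotated transcript of 1156 bases.

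As a whole the clustered histone genes were a very small part of the counts in these libraries. How far the typical lack of a poly(A) tail lowered this part was not tested. The members held 1977, 2113, 1952 and 1958 counts. In DMSO replicate 1 that was 0.0106% of all counts (95% Wilson interval 0.0102 to 0.0111%), and in NECA replicate 2, the highest, 0.0123% (0.0118 to 0.0129%). Intervals here cover counting error only, since PCR copies are not independent molecules. Total counts ranged from 15864120 to 18712625 per library. Of the 70 members, 39 had counts in every library, 20 in some, and 11 in none. A count of 0 allows a level of up to 0.157 to 0.194 CPM (3 counts; CPM is the count scaled to a common library size after TMM). Only 9 members averaged at least 1 CPM, and 3 at least 5 CPM. Summed over members, the level was 103, 112, 107 and 126 CPM, and the groups overlapped.

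H1 led the classes, and it did so through 1 gene. Per length, the summed H1 level was 40.4, 45.1, 43.9 and 51.8 FPKM, and Hist1h1c, which encodes a linker histone made in most cells, gave between 93.2% and 96.2% of the H1 counts. H2B followed at 21.2, 18.6, 20.6 and 25.1 FPKM and H4 at 15.5, 15.5, 15.2 and 13.8 FPKM. H2A, with the most genes, reached 6.04, 10.1, 6.37 and 9.68 FPKM, and H3 6.52, 6.13, 4.97 and 4.45 FPKM. In each library the order was H1, H2B and H4, with H2A and H3 below them, so the summed FPKM of the 4 core classes was unequal. H2A and H3 also share the most sequence with other genes (class medians 73.2% and 61.98%, against 44.1% for H2B and 39.5% for H4). Reads that match several genes may have gone uncounted. How far this lowered the sums of H2A and H3 was not tested. Nor was it tested how far the typical lack of a poly(A) tail lowered the sum of each class. The order may therefore not be that of the transcripts. In CPM, the scale used below to compare libraries, H1 summed to 63.0, 71.7, 68.7 and 80.7, H2B to 21.8, 19.1, 20.8 and 26.1 and H4 to 10.2, 10.6, 9.98 and 9.49. H2A summed to 4.07, 6.47, 4.17 and 6.91 CPM. The log2 ratio of the NECA mean over the DMSO mean was 0.15 for H1, 0.07 for H2A, 0.20 for H2B, -0.32 for H3 and -0.09 for H4. Only in H3 and H4 were both NECA libraries on 1 side of both DMSO libraries. Such a separation, in either direction, was found in 46.7% of all tested genes.

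**Figure D1:**
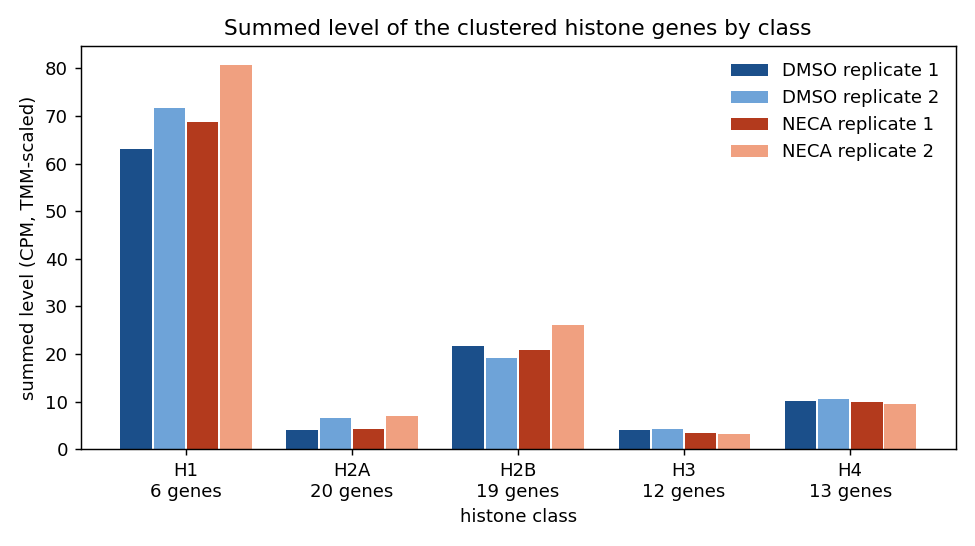
Summed level of each histone class (CPM, TMM-scaled, y axis) in the 4 libraries, with the number of genes under each class. H1 stands at 63.0 to 80.7 CPM. In H3 and, by less, in H4 both NECA libraries are below both DMSO libraries. Groups lie apart, in either direction, in 46.7% of all tested genes.

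Per length, Hist1h1c again stood first, with 37.6, 42.7, 42.5 and 49.3 FPKM (mean 43.0). It lies on chromosome 13 from 23738808 to 23740367 on the plus strand, as 1 exon of 1560 bases. Hist1h4i, an H4 gene (chromosome 13, 22040636 to 22041362, minus strand), had 7.74, 8.52, 8.70 and 8.73 FPKM. Hist1h2bc, an H2B gene (chromosome 13, 23684199 to 23692908, plus strand), had 7.84, 8.65, 7.09 and 9.53 FPKM. For these 3 genes the NECA and DMSO libraries lay close to each other. Next came Hist1h2bg, another H2B gene (chromosome 13, 23571396 to 23572013, plus strand), at a mean of 4.73 FPKM, Hist1h2ao, an H2A gene, at 2.78, and Hist1h4m, an H4 gene, at 2.11 FPKM. The leading H3 gene, Hist1h3c, averaged 1.13 FPKM. By mean FPKM, Hist1h1c ranked above 98.2% of all genes in the tables, Hist1h4i above 92.2% and Hist1h3c above 82.1%.

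**Figure D2:**
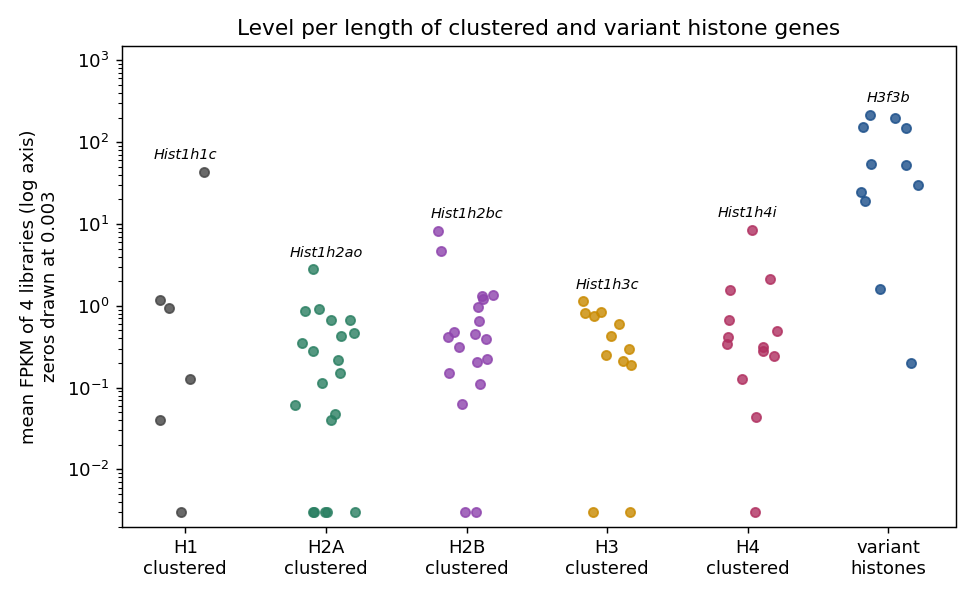
Mean FPKM over the 4 libraries (log axis) of each clustered histone gene, by class, and of 11 variant histone genes outside the clusters; the most abundant gene of each column is named and genes at 0 are drawn at 0.003. Hist1h1c, at 43.0 FPKM, stands above all other clustered members and below H1f0, at 54.3 FPKM.

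Counts of single members are uncertain where copies share sequence. Of the stretches of 50 bases in a member's transcripts, the share also found in another gene had a median of 73.2% for H2A, 61.98% for H3, 44.1% for H2B, 39.5% for H4 and 1.13% for H1. It was 8.54% for Hist1h1c, 28.9% for Hist1h4i, 30.1% for Hist1h2bc and 49.7% for Hist1h2bg, and 93.5% for Hist1h2ao. Among the 11 members with no count were the H2A gene Hist2h2aa2 and the H3 gene Hist2h3c1, all of whose stretches occur in another gene. The list also held the testis-type H1 gene Hist1h1t and the H2A gene Hist1h2aa, with shared stretches of 0% and 2.35%. How the authors treated reads matching several genes is not given in the sources used here, so low counts of members with many shared stretches cannot be told apart from reads left uncounted. In addition, 26 members overlap another annotated gene. Hist1h1e and Hist1h2be overlap each other on the same strand, and Hist3h2a overlaps Trim17. Class sums do not depend on how reads were divided within a class, provided that they were counted. The sums can depend on how reads were divided between classes, as between Hist1h1e (H1) and Hist1h2be (H2B).

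The question asked of the members was whether NECA shifted them, as a whole or by class. By edgeR's quasi-likelihood test over all 13083 genes that passed the filter on low counts, 0 of the 22 clustered histone genes that passed it were higher and 0 were lower at adjusted p under 0.05. Of all tested genes 1.33% were called, 0.352% higher and 0.978% lower, so a count of 0 among 22 is near the background. At an unadjusted p under 0.05 there were 3 members (Hist1h2bg, Hist1h2bn and Hist1h4m), and 15.7% of all tested genes met that mark. DESeq2 called 0 of the 9 members to which it gave an adjusted p. The 48 members below the filter had summed levels of 8.98, 7.21, 6.31 and 7.23 CPM. The median log2 fold change of the 22 members was 0.07, against -0.01 for all tested genes, with 13 values above 0. Their median distance from 0 was 0.32, against 0.15 for all tested genes. The sets were not matched for level, so this does not show that the members moved more. Among the members, Hist1h2br, with a mean of 8.5 counts, had an SE of 1.16. Hist1h1c, with a mean of 1194 counts, had an SE of 0.09.

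**Figure D3:**
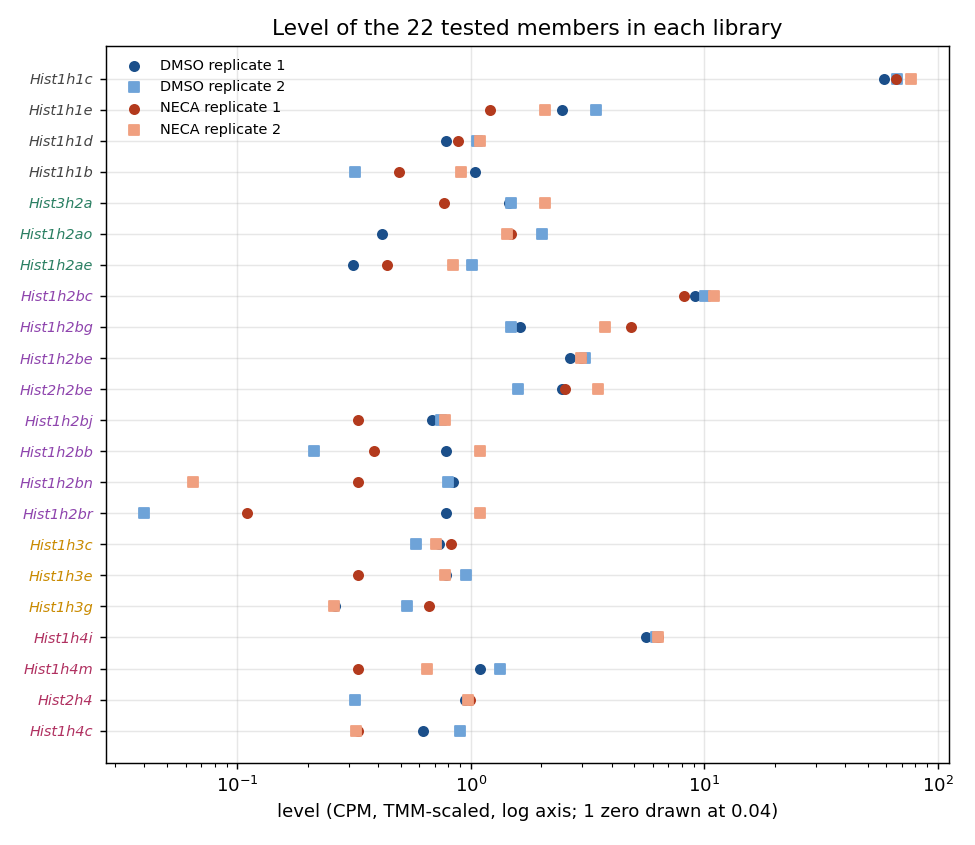
Level of the 22 tested members (CPM, TMM-scaled, log axis) in each of the 4 libraries, ordered by class from H1 at the top to H4 at the bottom. Hist1h2bg is the member whose NECA libraries, at 4.83 and 3.74 CPM, lie farthest above its DMSO libraries, at 1.62 and 1.49 CPM.

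In 9 of the 22 tested members the NECA and DMSO libraries did not overlap, 4 higher and 5 lower with NECA. Such a separation was found in 46.7% of all tested genes (22.4% higher and 24.2% lower), so the share among the members was close to that of genes in general. Those higher with NECA by this measure were Hist1h2bg, Hist1h4i, Hist2h2be and Hist2h4. Those lower were Hist1h1e, Hist1h2bn, Hist1h3e, Hist1h4c and Hist1h4m.

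Among the linker histones, the CPM of Hist1h1c was 58.8 and 66.8 in the DMSO libraries against 66.1 and 76.6 in the NECA libraries, so the groups overlapped. Its log2 fold change was 0.18 (95% interval -0.02 to 0.38; edgeR adjusted p = 0.373). Hist1h1e, another H1 gene, had 47, 65, 22 and 32 counts, or 2.45, 3.45, 1.21 and 2.07 CPM, with both NECA libraries below both DMSO libraries. Its log2 fold change was -0.86 (SE 0.40, edgeR adjusted p = 0.322), and -0.51 without NECA replicate 1. Hist1h1d, with 15 to 20 counts a library, stood at 0.09 (SE 0.54). Without Hist1h1c, the remaining H1 genes summed to 4.28, 4.88, 2.58 and 4.13 CPM.

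H2A genes were scarce and uneven between replicates. The class reached 78 and 122 counts in the DMSO libraries and 76 and 107 in the NECA libraries, so in both conditions replicate 2 was higher, by more than the conditions differed. Hist3h2a, the member with the most counts, had 28, 28, 14 and 32 counts and a log2 fold change of -0.08 (SE 0.52). Hist1h2ao had 8, 38, 27 and 22 counts, and Hist1h2ae 6, 19, 8 and 13. For neither of them were the groups apart.

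H2B held the 1 member nearest to the threshold. Hist1h2bg had 31 and 28 counts with DMSO and 88 and 58 counts with NECA, or 1.62, 1.49, 4.83 and 3.74 CPM. The exact Poisson 95% intervals were 1.10 to 2.30 and 0.987 to 2.15 CPM in the DMSO libraries, and 3.87 to 5.95 and 2.84 to 4.84 CPM in the NECA libraries. The intervals of both NECA libraries thus lay above those of both DMSO libraries. They treat reads as independent, which PCR copies are not, so they are too narrow by an unknown amount. The log2 fold change was 1.46 (SE 0.33, 95% interval 0.74 to 2.19), and the edgeR adjusted p of 0.056 missed the threshold. Keeping low-count genes in the test gave the same value of 1.46 (edgeR adjusted p = 0.0014). That setting called 875 of 22344 genes, against 174 of 13083 in the main fit. With RLE or library size scaling, DESeq2 or limma on FPKM, the value was 1.39 to 1.47 and the adjusted p 0.0594 to 0.164. With single libraries left out, the value was 1.27 to 1.63.

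The other 7 tested H2B genes ran from -1.96 to 0.56 on the log2 scale, with 4 of them above 0, and 0 passed the threshold. Hist1h2bc had 174, 189, 149 and 170 counts and a log2 fold change of -0.0014 (SE 0.20, 95% interval -0.43 to 0.43). Hist1h2be had 51, 58, 54 and 46 counts, at 2.66 to 3.08 CPM in all libraries, with a log2 fold change of 0.05 (SE 0.31). Hist2h2be, from the smaller cluster on chromosome 3, had 47, 30, 46 and 54 counts, or 2.45, 1.59, 2.52 and 3.49 CPM. Like Hist1h2bg it was higher in both NECA libraries, narrowly for NECA replicate 1, at 0.56 (SE 0.37, edgeR adjusted p = 0.519; 0.29 without DMSO replicate 2 and 0.91 without DMSO replicate 1). Hist1h2bb had 15, 4, 7 and 17 counts and Hist1h2br 15, 0, 2 and 17. Both stood near Hist2h2be, at 0.54 (SE 0.78) and 0.56 (SE 1.16), with 1 high and 1 low library in each group. Hist1h2bn, of whose stretches 86.4% are shared, had 16, 15, 6 and 1 counts and stood at -1.96 (SE 0.80, edgeR adjusted p = 0.254; -3.52 without NECA replicate 1). Differences between these genes were not tested.

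**Figure D4:**
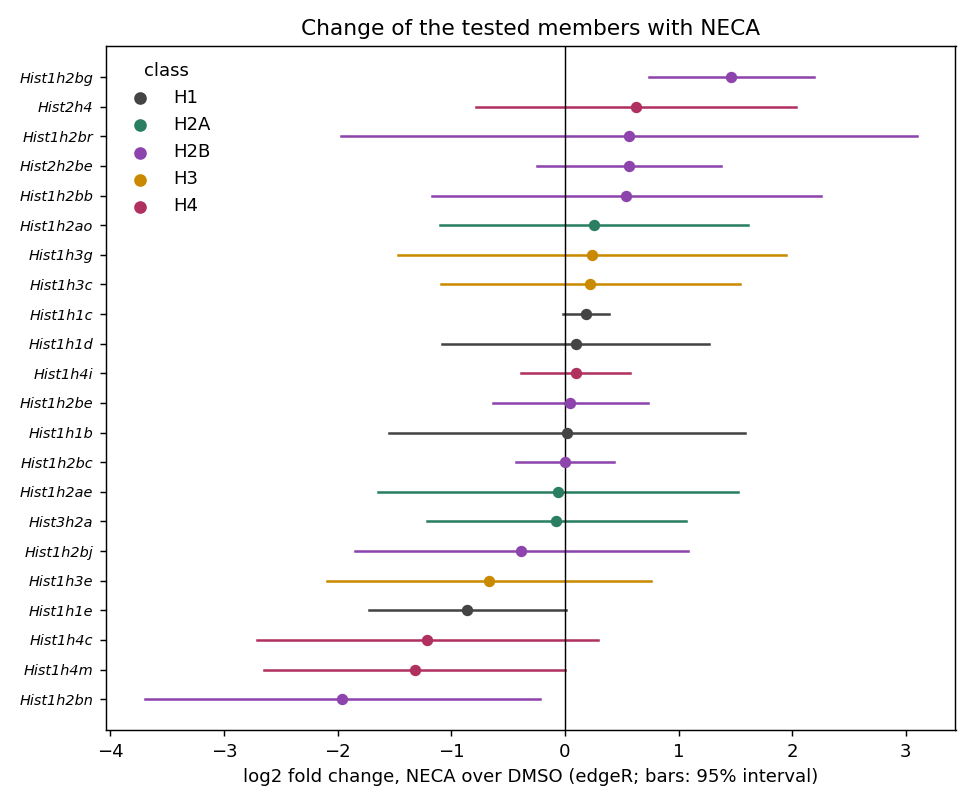
Log2 fold change of NECA over DMSO for the 22 tested members (points; bars give the 95% interval from edgeR), coloured by class. The intervals of Hist1h2bg and Hist1h2bn and, narrowly, Hist1h4m leave out 0 before adjustment over all genes; Hist1h1c has the narrowest interval.

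H3 genes were lower in both NECA libraries as a sum, at 79 and 80 counts with DMSO and 63 and 50 with NECA (4.12, 4.24, 3.46 and 3.23 CPM). The log2 ratio of the group means was -0.32. The Poisson intervals of the 4 libraries overlapped, from 3.26 to 5.14 CPM in DMSO replicate 1 to 2.40 to 4.26 CPM in NECA replicate 2. Among its tested members 2 of 3 had a log2 fold change above 0, with a median of 0.22, so the sum and most tested members differed in sign. Hist1h3c had 14, 11, 15 and 11 counts (0.22, SE 0.60) and Hist1h3g 5, 10, 12 and 4 counts (0.24, SE 0.78), and in both the groups overlapped. Hist1h3e had 15, 18, 6 and 12 counts, lower in both NECA libraries (-0.67, SE 0.65, edgeR adjusted p = 0.697). It stood at -0.16 without NECA replicate 1 and at -1.38 without NECA replicate 2. Hist2h3c2, with 13, 7, 8 and 4 counts, was below the filter.

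The H4 sum was led by Hist1h4i. Hist1h4i had 108, 117, 115 and 98 counts, or 5.64, 6.21, 6.31 and 6.33 CPM, and a log2 fold change of 0.09 (95% interval -0.38 to 0.57, edgeR adjusted p = 0.899). The other 12 H4 genes summed to 87, 83, 67 and 49 counts, or 4.54, 4.40, 3.68 and 3.16 CPM, a log2 ratio of -0.39. Their Poisson intervals overlapped, from 3.64 to 5.60 CPM in DMSO replicate 1 to 2.34 to 4.18 CPM in NECA replicate 2. The class was split this way after its values were seen, and the difference between Hist1h4i and the rest was not tested. Hist1h4m had 21, 25, 6 and 10 counts (log2 fold change -1.32, SE 0.61, edgeR adjusted p = 0.318). Hist1h4c had 12, 17, 6 and 5 counts (-1.21, SE 0.69, edgeR adjusted p = 0.436). Hist2h4, the H4 gene of the chromosome 3 cluster, had 18, 6, 18 and 15 counts and stood at 0.63 (SE 0.64), with 0.06 without DMSO replicate 2 and 1.60 without DMSO replicate 1. None of these 3 genes passed the threshold at such counts.

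Grouped by name, the 56 Hist1 genes, all on chromosome 13, carried nearly all counts, with 97.0, 107, 102 and 119 CPM. Among them the pseudogene Hist1h2al, at 51202727 to 51203065, lies far from the others. The 10 genes on chromosome 3 (Hist2) had 4.12, 3.29, 4.22 and 4.78 CPM, and the 3 genes on chromosome 11 (Hist3) 1.93, 1.70, 1.04 and 2.19 CPM. Hist4h4, alone on chromosome 6, had 1 to 4 counts per library. In every library, Hist1 held between 94.0% and 95.5% of the counts of all members.

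Variant histone genes outside the clusters held more of the FPKM in these tables. The 11 listed genes summed to 853, 902, 877 and 952 FPKM, 9.08 to 9.64 times the sum over the 70 clustered genes in the same library. Clustered messages typically lack a poly(A) tail, and reads shared between their copies may have gone uncounted. How far either lowers the clustered sum was not tested. H3f3b and H3f3a, which encode the replacement form of H3, averaged 215 and 152 FPKM, H2afz, an H2A variant placed at promoters, 198 FPKM, and H2afx, the H2A variant marked at DNA breaks, 149 FPKM. H1f0, a linker histone linked to differentiation, averaged 54.3 FPKM, slightly above Hist1h1c. Of the 10 variant genes tested with edgeR, 0 were higher and 0 lower over all genes, 1 had an unadjusted p under 0.05, DESeq2 called 0, and 9 of 10 log2 fold changes were above 0 (median 0.08). H2afj had the smallest p of them, at 85.0, 95.7, 101 and 102 CPM (0.17, SE 0.07, adjusted p = 0.299). H2afx stood at 0.11, but at -0.07 without NECA replicate 2 and at 0.26 without NECA replicate 1.

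Genes that make and process histone messages were detected throughout. Slbp, whose protein binds the stem-loop shown above, had 61.4, 62.8, 67.2 and 66.9 CPM and a log2 fold change of 0.11 (SE 0.07, edgeR adjusted p = 0.521). Npat, the activator of clustered histone transcription, had 8.66, 11.1, 10.97 and 10.0 CPM (0.08, SE 0.19). Lsm11, part of the U7 particle that cuts histone messages, stood at 0.30 (SE 0.20; 0.099 without NECA replicate 2), and Eri1, an exonuclease that trims the histone stem-loop, at -0.16 (SE 0.10). Of 16 tested genes of this list, 0 were higher and 0 lower by edgeR's test and by DESeq2, and 0 had an unadjusted p under 0.05, with a median of 0.04. Among 20 histone chaperones, likewise 0 were higher and 0 lower by edgeR's test (median -0.07), 3 had an unadjusted p under 0.05, and DESeq2 called 1 higher, Hjurp. Rbbp7, a histone-binding subunit of several chromatin complexes, had the lowest value of the 3 chaperones with the smallest p (47.6, 45.7, 37.9 and 38.0 CPM; -0.30, edgeR adjusted p = 0.107). Hjurp, the chaperone of the centromeric H3 variant, had 595, 557, 642 and 683 CPM (0.20, adjusted p = 0.0912), and Spty2d1 stood at 0.16.

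Genes of the cell cycle give the setting in which clustered histones are normally made. The proliferation marker Mki67 had 534, 510, 505 and 602 CPM, and the S phase enzyme Rrm2, a subunit of ribonucleotide reductase, 101, 107, 99.2 and 105 CPM; Rrm2 and Mki67 were picked as familiar markers after their values were seen. Of 37 genes of DNA replication, 0 were higher and 0 lower by edgeR's test or DESeq2, and 3 had an unadjusted p under 0.05. Their median log2 fold change was -0.15, with 29 of 37 values below 0, and their summed level was 1284, 1366, 1298 and 1245 CPM. Rfc3, a subunit of the clamp loader, stood at -0.73 (edgeR adjusted p = 0.246), with -0.19 without DMSO replicate 2 and -1.11 without DMSO replicate 1. Mcm7, a subunit of the replicative helicase, stood at -0.18. Of 25 mitosis genes, 0 were higher and 0 lower by either tool and 2 had an unadjusted p under 0.05, with a median of 0.07. The sum of the mitosis genes was 2449, 2487 and 2347 CPM in the first 3 libraries and 2869 CPM in NECA replicate 2. In that library the clustered histone sum was also highest, while the sum of the DNA replication genes was lowest. A link between these sums was not tested. Ccnb2, Hmmr and Ccnb1, genes of mitotic entry and the spindle, stood at 0.23, 0.26 and 0.20. Without NECA replicate 1 they were at 0.30, 0.42 and 0.34, and without NECA replicate 2 they were at 0.15, 0.095 and 0.043.

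The cells carried the markers of neutrophils that their label implies, and marker RNA of other cell types differed between the libraries. The 17 neutrophil markers summed to 124297, 129911, 138358 and 139210 CPM. Their median log2 fold change was 0.14, with 14 values above 0 and 3 below. By edgeR's test 13 had an unadjusted p under 0.05, a mark met by 15.7% of all tested genes. DESeq2 called 6 higher and 0 lower. By edgeR's adjusted p, 2 were called, Mmp8 and Mmp9, both higher with NECA (both 0.23, adjusted p = 0.0254 and 0.0126), with Lcn2 at 0.15 (adjusted p = 0.056). Both calls were lost with library size alone (0.16 for each, adjusted p = 0.0837 and 0.0556), without DMSO replicate 1 (adjusted p = 0.157 and 0.0754) and with limma on FPKM (0.261 and 0.259), and that of Mmp9 also without DMSO replicate 2 (0.052). Of 24 markers of monocytes and macrophages, 0 were higher and 16 lower by edgeR's test (median -1.49), among them Vcam1 (-1.73) and C1qc (-1.81), and the list summed to 1846, 1780, 1452 and 1379 CPM. The 17 tested B cell markers had a median of -1.55, with 1 lower (Blnk, -2.43), and sums of 195, 210, 117 and 30.3 CPM over the list. The Blnk call was lost with RLE size factors (adjusted p = 0.0556), without DMSO replicate 1 (0.114) or 2 (0.217) and with limma (0.251), and leaving out NECA replicate 1 moved it to -4.29, or NECA replicate 2 to -1.70. The 21 tested erythroid markers had a median of -1.55, with 0 called by edgeR or, of 20 with an adjusted p, by DESeq2, 16 at an unadjusted p under 0.05 and sums of 1283, 574, 408 and 69.9 CPM, and Hbb-y and Hbb-bh1 were at 0 in all libraries. The 11 tested T and NK cell markers had a median of -1.51, with 0 called by edgeR or, of 6 with an adjusted p, by DESeq2, 7 at an unadjusted p under 0.05 and sums of 37.5, 38.5, 21.6 and 21.2 CPM. The part of these cells in the values of H3, H4 or any other clustered histone gene was not tested. In bulk RNA, fewer cells of a type and less RNA per cell cannot be told apart. Over all genes, 46 were higher and 128 lower with NECA. With library size alone as the scale, 8.82% of the called genes were higher, against 26.4% with TMM, and the median gene shifted by -0.07 on the log2 scale.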

How the data were processed

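Tables of 4 libraries (2 with DMSO, 2 with NECA) were used. Per the file headers, the authors deposited an FPKM value and a count of reads for each Ensembl gene. The submitters' processing notes name HISAT, StringTie and edgeR, without versions, and mm10 (GRCm38). Neither the counting program nor its handling of strand is given in the sources used here. For every member with counts, the deposited FPKM was the count divided by the exon length in GENCODE M21 and a library scale, within 0.1%. Counts were tested in R 4.3.3 with edgeR 4.0.16 (filterByExpr with minimum count 10, TMM, glmQLFit and glmQLFTest, 2 residual degrees of freedom, Benjamini-Hochberg over all tested genes, threshold 0.05), with DESeq2 1.42.0 and limma 3.58.1 on log2(FPKM + 0.1) as alternatives. The SE is the log2 fold change over the square root of F. The test was checked on simulated data. Members and the 10 gene lists (215 entries, 4 not found in the tables) were chosen with earlier results of these data known. Named were members past the threshold, the 3 most abundant of each class, those of at least 5 CPM and tested ones with an absolute log2 fold change of at least 1. From each list, members past the threshold, the 3 with the smallest p, Slbp and Npat were eligible. Others were chosen after their values were seen. Not every eligible gene is reported here. Coordinates and sequences are from GENCODE M21. Replicates were not copies of each other (chi-square per degree of freedom 6.74 for DMSO and 5.24 for NECA).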

Additional observations from a re-analysis of the deposited data

How the results depend on the processing

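Over all genes the replicate numbers showed no pairing: across 11524 genes the difference between replicates with DMSO and with NECA correlated at 0.0092. Single sums varied in this. From replicate 1 to 2, H2A rose with DMSO (4.07 to 6.47 CPM) and with NECA (4.17 to 6.91 CPM). Erythroid markers fell in both (1283 to 574 and 408 to 69.9 CPM). H2B fell with DMSO (21.8 to 19.1 CPM) and rose with NECA (20.8 to 26.1 CPM). Whether libraries of the same number shared an origin was not tested. With the number as a replicate block, 123 genes were higher and 298 lower, and 1 member, Hist1h2bg, was higher (1.46, adjusted p = 0.0333). Without a filter on low counts 285 genes were higher and 590 lower, and again 1 member, Hist1h2bg, was higher (1.46, adjusted p = 0.0014). Over all its alternatives the value of Hist1h2bg stayed above 0. Library size alone gave 21 higher and 217 lower genes, and DESeq2 150 higher and 131 lower. Of the genes called by DESeq2, 53.4% were thus higher, against 26.4% in the main fit. With limma on FPKM 1 gene was higher and 0 were lower, so the macrophage marker calls were lost there too. Leaving out single libraries gave 8 to 227 higher and 45 to 594 lower genes (8 and 45 once DMSO replicate 1 was dropped, 34 and 60 for DMSO replicate 2, 227 and 594 for NECA replicate 1, 114 and 198 for NECA replicate 2), 0 to 1 members higher and 0 lower, and a median of the tested members from -0.30 to 0.21. The log2 ratio of the H3 sum was -0.40 by library size alone and -0.42 by summed FPKM, and that of H4 -0.17 by library size alone. Leave-one-out ranges were -0.01 to 0.23 for all members, 0.03 to 0.26 for H1, -0.34 to 0.44 for H2A, 0.03 to 0.35 for H2B, -0.37 to -0.28 for H3 and -0.13 to -0.06 for H4. Without the most abundant member of the class, an alternative chosen after seeing the data, the ratios were -0.45 for H1, 0.12 for H2A, 0.35 for H2B, -0.45 for H3 and -0.39 for H4.

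Values with large errors or near 0 changed sign. Hist1h2ae was 0.043 with the replicate block and 0.088 with limma on FPKM, Hist1h2bc 0.0031 with RLE size factors and 0.0080 with DESeq2, and with library size alone Hist1h2be was -0.024, Hist1h1b -0.055, H2afz -0.064 and H3f3b -0.067. Leave-one-out fits ran from -0.59 to 1.11 for Hist1h1b, -0.10 to 0.33 for Hist1h1d, -0.66 to 1.0002 for Hist1h2ae, -0.47 to 1.78 for Hist1h2ao, -0.22 to 0.20 for Hist1h2bc, -0.048 to 0.16 for Hist1h2be, -0.37 to 1.75 for Hist1h2bb, -1.09 to 0.12 for Hist1h2bj, -0.60 to 0.82 for Hist1h3g, -0.93 to 0.49 for Hist3h2a, -0.070 to 0.26 for H2afx, -0.031 to 0.045 for H2afz, -0.054 to 0.077 for H3f3b, -0.047 to 0.20 for H1f0, -0.067 to 0.019 for Rrm2, -0.046 to 0.21 for Mki67 and -0.081 to 0.28 for Npat. For Hist1h2br they ran from -1.78 to 6.38, the latter against a DMSO library with 0 counts and so no measure of size. Of members that kept their sign, Hist1h1c ran from 0.075 to 0.29, Hist1h3c from 0.075 to 0.40, Hist1h4i from 0.031 to 0.17 and Hist1h4m from -1.86 to -0.90. The cause was not tested. Class sums carry no test, so they have no value without the filter, with the block or for DESeq2 beyond its size factors. A fit with 1 library in a group assumes that it varies like the other group. Among the limits is depth, since 61 of 70 members averaged under 1 CPM.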
